A study of Rattus norvegicus with 30 samples.

Results

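The acute phase reaction and the secreted defence of the airway were followed through 10 genes of the rat lung, Lcn2, Orm1, Hp, Lbp, Ptx3, Defb5, Reg3g, Lyz2, Slpi and Pigr. They were chosen by name, with earlier results of these data known. Their probes were found through the RefSeq transcript that the array design assigns to each probe. The 10 genes had 11 probes of the 30367 on the array, 2 of them for Ptx3. Of these genes, 9 passed the filter on dim probes and were tested among 18411 genes. The probe of Reg3g did not pass on any array.

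Acute phase proteins are plasma proteins that the liver makes in large amounts during inflammation, and airway and alveolar epithelium can make several of them locally. The cytokines IL-1, IL-6, IL-17 and IL-22 are known inducers, acting through the transcription factors NF-kB, C/EBP and STAT3. The airway lining also secretes peptides and enzymes that kill bacteria, inhibitors that hold back neutrophil proteases, and antibodies that epithelial cells carry into the lumen.

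The animals were adult male Wistar Unilever HsdCpb:WU rats, 8 weeks old, which breathed air or copper oxide (CuO) nanoparticles through the nose only, 6 hours a day on 5 days. The doses were 0 (air), 3.3 (low) and 13.2 mg/m3 (high), and lungs were taken on day 6, which is 1 day after the last exposure, or on day 28, after 22 days without exposure. Each of the 6 groups held 5 rats and each rat gave 1 array, with its lung RNA in Cy5 and a reference RNA common to all arrays in Cy3. The labels give CuO NPs as the treatment of the dose 0 rats too, and they served here as the air controls named in the protocol.

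The median Cy5 intensity of an array lay between 216 and 432, and 59.5% to 68.4% of probes were well above background. Values below are log2 ratios of lung RNA over the reference, and a difference of 1 is a doubling of that ratio. In whole lung RNA, a change in the number of cells of a type and a change in RNA per cell cannot be told apart. Markers of surfactant-making type 2 cells were bright in all groups, with a mean log2 ratio over 9 genes of 4.60 to 5.53 in single rats. One air rat of day 6, rat 4, stood apart from the other 4 by its heart muscle markers, with a mean log2 ratio over 10 genes of 3.65 against -1.24 to -0.32, and by its club and goblet cell markers, at 4.44 against 2.28 to 2.44. In low dose rat 49 of day 6 the heart mean was 1.54, against -1.11 to -0.67 in the other low dose rats of that day, and single rats of day 28 reached 0.75 at the low and 0.73 at the high dose.

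The reference RNA in Cy3 was common to all arrays, yet for some of the 10 genes its signal moved with that of the lung RNA. Cy3 alone, quantile-normalized and fitted like the ratios, passed the threshold at the high dose on day 6 for 134 of 18411 genes (0.728%). The 134 included Lcn2, Defb5, Pigr and Orm1, whose Cy3 signals were higher in high dose rats by 1.33, 1.35, 1.04 and 0.20 on the log2 scale. In raw intensity, the median Cy3 signal of Lcn2 was 1222 in air rats and 3196 in high dose rats, beside Cy5 medians of 5849 and 311375. The ratios of these 4 genes on day 6 differed less between groups than their Cy5 signals did, and Cy5 values are given beside them. The cause was not tested.

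Upstream sequence is shown for 4 genes, Lcn2, Orm1, Defb5 and Ptx3, which had promoter sequence and whose ratios passed at both doses on day 6. Lyz2, Pigr and Reg3g were searched but are not shown. Shared regulation was not tested. RefSeq promoter sequence (GRCr8) was found for 7 of the 10 genes, without Hp, Lbp and Slpi. The 250 bases before the start that the RefSeq promoter table gives for each gene were searched in full on both strands for the NF-kB consensus, the C/EBP core TTGCNNAA and the STAT core TTCNNNGAA, and on the given strand for the TATA box TATAAA. The annotated gene reaches 71 bases into this window for Lcn2, 181 for Pigr, 49 for Lyz2 and 0 for the other 4, and those bases were searched but are not printed. Each stretch is printed 5′ to 3′ on the gene's own strand, with matches in capitals, so that 179 of the 250 bases are shown for Lcn2.
Lcn2 (chr3:36081852-36082030, minus strand, NF-kB consensus then C/EBP core): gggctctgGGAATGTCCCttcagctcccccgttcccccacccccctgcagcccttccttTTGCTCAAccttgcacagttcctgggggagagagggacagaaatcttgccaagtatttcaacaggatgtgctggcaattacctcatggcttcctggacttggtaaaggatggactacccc
Orm1 (chr5:81788259-81788508, plus strand, C/EBP core then TATA box): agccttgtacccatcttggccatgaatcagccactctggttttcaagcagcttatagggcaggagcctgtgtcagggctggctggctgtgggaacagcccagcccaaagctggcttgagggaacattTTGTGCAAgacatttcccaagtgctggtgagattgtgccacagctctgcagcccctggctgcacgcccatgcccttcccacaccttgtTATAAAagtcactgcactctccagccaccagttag
Defb5 (chr16:77317829-77318078, minus strand, C/EBP core): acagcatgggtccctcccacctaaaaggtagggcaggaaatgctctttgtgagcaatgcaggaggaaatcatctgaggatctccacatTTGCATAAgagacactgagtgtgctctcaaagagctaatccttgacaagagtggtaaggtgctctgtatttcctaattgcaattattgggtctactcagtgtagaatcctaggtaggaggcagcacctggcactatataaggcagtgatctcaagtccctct
Ptx3 (chr2:152797313-152797562, plus strand, C/EBP core then 2 overlapping NF-kB matches): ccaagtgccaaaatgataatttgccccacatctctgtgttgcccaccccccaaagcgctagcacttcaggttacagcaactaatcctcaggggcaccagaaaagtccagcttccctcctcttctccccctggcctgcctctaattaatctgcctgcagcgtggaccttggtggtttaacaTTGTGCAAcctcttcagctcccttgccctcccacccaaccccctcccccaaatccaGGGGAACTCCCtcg
Among the 7 genes, the C/EBP core occurred in 5 (Lcn2, Orm1, Defb5, Lyz2 and Ptx3), against 9.22% of 33469 RefSeq promoters searched over the same 250 bases. The NF-kB consensus occurred in 3 (Lcn2, Reg3g and Ptx3), against 3.54%. The TATA box occurred in 2 (Orm1 and Reg3g), against 8.06%, and the STAT core in 0, against 7.67%. The Ptx3 matches to NF-kB began 13 and 14 bases before the start in the table, and that of Lcn2 242 bases before it, 71 of which are not printed. A match describes the letters in this window and no more.

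The day after the last exposure, 8 of the 9 tested genes were higher in high dose rats than in air rats, and 7 were higher in low dose rats. Of all 18411 genes, 21.1% were called higher at the high dose and 4.98% at the low dose. The median log2 difference of the 9 genes was 2.02 at the high dose and 1.52 at the low dose, against 0.01 and 0.00 over all genes. By the ratio, the largest differences belonged to Defb5 and Lcn2, and the smallest to Lyz2 and Pigr. In Cy5 alone at the high dose, Pigr was higher by 1.43 and Lyz2 by 0.02. Ranges of high dose and air rats did not overlap for 6 genes (background 16.8%), and those of low dose and air rats for 4 (background 5.37%). Orm1 is in all these counts and in those of the change between days below. It passed the filter on dim probes only through exposed rats, with 5 low dose and 5 high dose rats of day 6 and 0 air rats well above background. Its place in the counts is therefore not independent of the filter. Differences, standard errors (SE) and adjusted p-values are from limma, adjusted by Benjamini-Hochberg over all genes tested, with n = 5 rats per group. Without air rat 4, 8 genes were higher at the high dose and 6 at the low dose, where Ptx3 no longer passed.

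**Figure D1:**
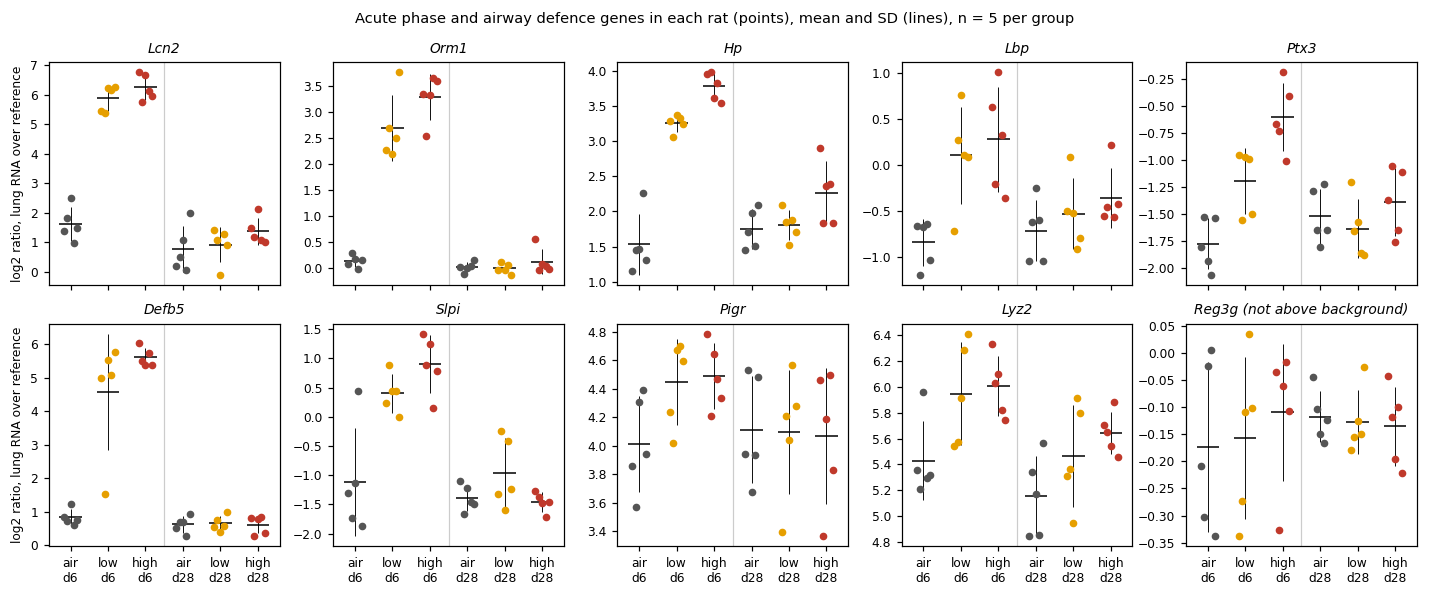
Log2 ratio of lung RNA over reference (y axes, a separate scale in each panel) for the 10 genes in each of 30 rats (points), by dose and day, with group mean and SD (lines, n = 5). Lcn2, Orm1, Hp and Defb5 of both exposed groups sit above all air rats on day 6, and no gene has separate groups on day 28.

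Lcn2 encodes lipocalin 2, which binds bacterial siderophores and so withholds iron, and which neutrophils and injured epithelium release. On day 6 its log2 ratios were 1.37, 1.81, 2.5, 0.97 and 1.48 in air rats. They were 5.44, 5.39, 6.23, 6.15 and 6.25 at the low dose and 6.76, 5.75, 6.67, 6.11 and 5.97 at the high dose. Every exposed rat lay far above every air rat, while the exposed groups overlapped each other. Lcn2 rose by 4.63 ± 0.33 (SE), or 24.7-fold, at the high dose (adjusted p = 1.44e-11) and by 4.27, or 19.2-fold, at the low dose (adjusted p = 8.35e-10). In Cy5 alone the differences were 5.54 and 4.87 on the log2 scale, or 46.6-fold and 29.3-fold. The Lcn2 probe ranked between 2 and 5899 of 30367 by Cy5 brightness across the 30 arrays and was saturated on 0 of them.

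Orm1 encodes alpha-1-acid glycoprotein, a plasma protein that binds drugs and lipids. Its probe was not well above background in any air rat of day 6 and was so in all 10 exposed rats of that day. The log2 ratios were 0.09, 0.29, 0.18, -0.01 and 0.15 in air rats, 2.26, 2.70, 2.20, 2.5 and 3.77 at the low dose and 3.34, 2.53, 3.32, 3.65 and 3.60 at the high dose. Air and exposed rats did not overlap. The Orm1 ratio rose by 3.15 ± 0.20 (SE), or 8.88-fold, at the high dose (adjusted p = 1.96e-12). At the low dose it rose by 2.55, or 5.84-fold (adjusted p = 1.36e-09). In Cy5 alone the rises were 13.7-fold and 8.11-fold. Against a background floor, normalized Cy5 of Orm1 was 12.0-fold and 7.20-fold higher. This floor is the lowest signal among probes well above background, or the probe's own where higher, on each air array. Its mean on the log2 scale, 6.33, lay next to the probe's own mean of 6.32. The 12.0-fold and 7.20-fold are therefore close to folds against the probe's own signal in air rats, where it was not detected. Both means include the offset of 50 added in background correction, which makes the folds of dim probes smaller. The Orm1 call was kept at both doses in all 21 alternatives. Across them the log2 difference ran from 3.06 to 5.13 at the high dose and from 2.28 to 4.70 at the low dose. Lung RNA was in Cy5 on every array and no array had its dyes swapped, so dye bias could not be measured.

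Hp encodes haptoglobin, which captures free haemoglobin. Its ratios were 1.15, 1.46, 1.47, 2.26 and 1.32 in air rats, 3.28, 3.05, 3.37, 3.33 and 3.25 at the low dose and 3.96, 3.98, 3.62, 3.82 and 3.55 at the high dose. The 3 groups formed separate ranges in the order of the dose, with rat 4 the highest air rat. Hp rose by 2.25 ± 0.18 (SE), or 4.77-fold, at the high dose (adjusted p = 1.76e-10) and by 1.73, or 3.31-fold, at the low dose (adjusted p = 2.01e-07). Without rat 4 the differences were 2.44 and 1.91. Cy3 of Hp did not pass the threshold (0.19 higher at the high dose, adjusted p = 0.335).

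Lbp encodes the lipopolysaccharide binding protein, which hands bacterial lipopolysaccharide to CD14 and TLR4. Its ratios were -0.66, -1.19, -0.67, -0.64 and -1.02 in air rats, -0.71, 0.28, 0.77, 0.12 and 0.10 at the low dose and 0.63, -0.20, 1.02, 0.33 and -0.36 at the high dose. High dose rats all lay above the air rats, whereas low dose rat 47 lay among them. Lbp rose by 1.12 ± 0.25 (SE), or 2.17-fold, at the high dose (adjusted p = 0.000752) and by 0.94, or 1.92-fold, at the low dose (adjusted p = 0.0172). The low dose call was lost without air rat 2, air rat 5 or low dose rat 49 (adjusted p = 0.0521, 0.0504 and 0.0585) and with median centring in place of loess (0.055).

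Ptx3 encodes pentraxin 3, a soluble recognition protein that local cells rather than the liver make. The brighter of its 2 probes gave -1.81, -1.53, -1.94, -2.06 and -1.54 in air rats, -0.95, -1.56, -0.98, -1.0 and -1.5 at the low dose and -0.67, -0.73, -0.19, -1.01 and -0.41 at the high dose. High dose rats did not overlap air rats, and 1 low dose rat, rat 48, reached the air range. Ptx3 rose by 1.17 ± 0.17 (SE), or 2.26-fold, at the high dose (adjusted p = 4.26e-06) and by 0.58, or 1.49-fold, at the low dose (adjusted p = 0.0392). The low dose call was lost without any one of air rats 1, 3 and 4 and low dose rats 47, 49 and 50 (adjusted p = 0.0746, 0.095, 0.0918, 0.0818, 0.0852 and 0.0991), with median centring (0.0809), with no filter (0.0539) and with both probes averaged (0.0559). The second Ptx3 probe was not well above background in air rats and was so in 4 low dose and 3 high dose rats of day 6; its difference of 0.15 at the high dose did not pass (adjusted p = 0.129).

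Defb5 encodes a beta-defensin, one of a family of small cationic peptides that kill microbes. Its ratios were 0.84, 0.72, 1.24, 0.61 and 0.76 in air rats, 4.99, 1.52, 5.53, 5.09 and 5.75 at the low dose and 6.05, 5.50, 5.37, 5.73 and 5.38 at the high dose. No exposed rat reached down to the air range, and low dose rat 48 lay far below the other 4 rats of its group. Defb5 rose by 4.77 ± 0.44 (SE), or 27.3-fold, at the high dose (adjusted p = 1.50e-09) and by 3.74, or 13.4-fold, at the low dose (adjusted p = 9.76e-07). Without rat 48 the low dose difference was 4.50 (adjusted p = 3.38e-16). In Cy5 alone the differences were 6.45 and 4.85 on the log2 scale. The size of the Defb5 rise depended on the processing, while the call was kept at both doses in all 21 alternatives. Across them the difference ran from 2.63 to 6.45 at the high dose and from 2.39 to 4.85 at the low dose. Raw Cy3 of the probe was only 37 to 48.8 in air rats of day 6. In the same rat 48, Lcn2 (5.39) was just under the next low dose rat, Orm1 (2.70) lay inside its group and Slpi (0.89) was the highest of the group.

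Reg3g encodes a secreted lectin that kills Gram-positive bacteria in the mouse gut. Its probe was not well above background on any of the 30 arrays, so it has no fold change. Its median raw Cy5 intensity was 77.5 in air rats, 74.3 at the low dose and 83.5 at the high dose of day 6. The related genes Reg3a, Reg3b and Reg1a did not pass the filter on dim probes either.

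Lyz2 encodes the lysozyme of macrophages and type 2 cells, which cuts bacterial cell walls. Its ratios were 5.35, 5.21, 5.96, 5.30 and 5.32 in air rats, 5.54, 5.57, 5.92, 6.29 and 6.41 at the low dose and 6.33, 6.03, 6.10, 5.82 and 5.74 at the high dose. Air rat 3 lay among the exposed rats and the other 4 below them. The ratio rose by 0.58 ± 0.19 (SE), or 1.49-fold, at the high dose (adjusted p = 0.0167), and the difference of 0.52 at the low dose did not pass (adjusted p = 0.098). Cy5 of Lyz2 by itself differed by 0.02 (adjusted p = 0.932), and Cy3 by -0.63 (adjusted p = 0.432). The probe ranked between 9 and 35 of 30367 by Cy5 on every array, where quantile normalization sets a value by its rank. Raw Cy5 medians of Lyz2 were 179647 in air rats and 183512 in high dose rats, and Cy3 medians were 3582 and 2540. The high dose call was also lost without high dose rat 75 (adjusted p = 0.052), and the low dose call was gained with slide as a fixed block (0.0244) or a random block (0.0492) and without air rat 3 (0.0382) or low dose rat 47 (0.0477).

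Slpi encodes the secretory leukocyte protease inhibitor, which blocks neutrophil elastase and is made by airway epithelium. Its ratios were -1.30, -1.74, -1.14, 0.44 and -1.86 in air rats, 0.23, 0.89, 0.45, 0.43 and -0.01 at the low dose and 1.42, 0.89, 1.25, 0.14 and 0.79 at the high dose. Air rat 4 lay among the exposed rats, and the other 4 air rats below all of them. Slpi rose by 2.02 ± 0.31 (SE), or 4.05-fold, at the high dose (adjusted p = 8.23e-06) and by 1.52, or 2.86-fold, at the low dose (adjusted p = 0.00184). Without rat 4, which was high in heart and airway markers, the differences were 2.41 (adjusted p = 1.60e-08) and 1.91 (adjusted p = 5.78e-06). The part of those markers in the Slpi value of rat 4 was not tested.

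Pigr encodes the polymeric immunoglobulin receptor, which carries IgA and IgM across epithelium into the airway. Its ratios were 3.86, 3.57, 4.31, 4.39 and 3.95 in air rats, 4.24, 4.02, 4.67, 4.70 and 4.60 at the low dose and 4.79, 4.21, 4.65, 4.47 and 4.34 at the high dose. The groups overlapped, and the ratio's differences of 0.48 ± 0.22 (SE) at the high dose and 0.43 at the low dose did not pass (adjusted p = 0.0926 and 0.273). In Cy5 alone Pigr passed at both doses, higher by 1.43 (2.70-fold, adjusted p = 8.84e-08) and by 1.40 (2.63-fold, adjusted p = 9.66e-07). Its Cy3 signal was higher as well, by 1.04 (adjusted p = 1.51e-07) and 0.98 (adjusted p = 2.67e-06). The raw Cy5 range of Pigr was 3398 to 8089 in air rats and 9899 to 15615 at the high dose, without overlap, and the raw Cy3 ranges, 116 to 171 and 270.25 to 391, did not overlap either. The ratio passed at the high dose with slide as a fixed block (adjusted p = 0.00393), as a random block (0.0309) and in a fit of the groups compared (0.0354). Pigr stayed short of the threshold in 17 of 21 alternatives at the high dose and in 20 of 21 at the low dose. Across the alternatives its difference ran from 0.07 to 1.43 at the high dose and from 0.03 to 1.40 at the low dose.

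**Figure D2:**
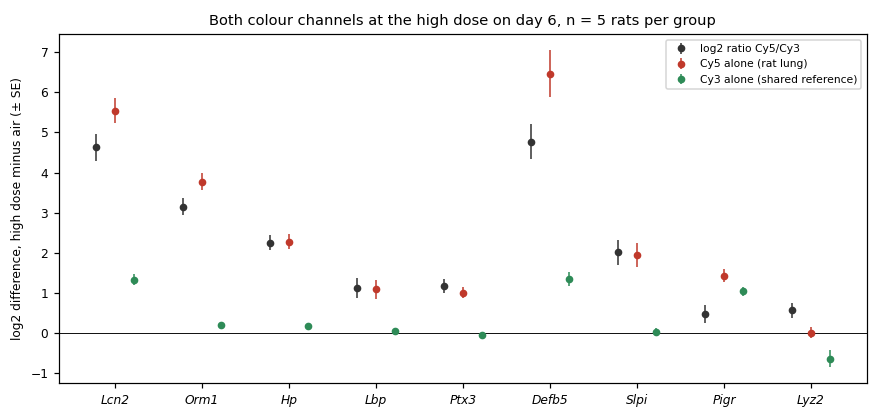
Log2 difference between high dose and air rats on day 6 (y axis, ± SE, n = 5 rats per group) of 9 genes, for the Cy5 over Cy3 ratio, for Cy5 of the lung RNA alone and for Cy3 of the common reference alone. Cy3 lies at 1.33 for Lcn2, 1.35 for Defb5 and 1.04 for Pigr, and between -0.63 and 0.20 for the other genes.

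Between the 2 doses on day 6, 1 of the 9 genes passed, where 8.02% of all genes were called higher at the high dose. Ptx3 was higher at the high dose by 0.60 ± 0.17 (SE), or 1.51-fold (adjusted p = 0.0219). This call was lost without low dose rat 48 or 51 or high dose rat 77 or 79 (adjusted p = 0.0639, 0.0674, 0.0898 and 0.0697) and when both Ptx3 probes were averaged (0.0523). Hp had separate ranges at the 2 doses (5.88% of all genes were separate in this direction) and a difference of 0.53 (adjusted p = 0.0599). It passed with slide as a fixed or random block (0.0213 and 0.0278) and in a fit of the 2 groups alone (0.00835). Orm1 differed by 0.60 (adjusted p = 0.0525), and passed without low dose rat 51 (0.000366) or high dose rat 76 (0.00506), in Cy5 alone (0.0163), with slide as a random block (0.0438) and with a stricter filter (0.0494). Lcn2 differed by 0.36, with a 95% interval of -0.32 to 1.05, and Defb5 by 1.03, with an interval of 0.12 to 1.93 (adjusted p = 0.139). Without low dose rat 48 the Defb5 difference was 0.26 (adjusted p = 0.37). Intervals of Lbp (-0.33 to 0.69), Slpi (-0.14 to 1.14), Pigr (-0.41 to 0.50) and Lyz2 (-0.33 to 0.44) spanned 0.

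On day 28, 0 of the 9 genes passed in limma in high or low dose rats against air, where 0.076% and 0% of all genes were called higher. At an unadjusted p under 0.05, 2 of the 9 were higher at the high dose and 0 at the low dose. The 2 were Hp and Lyz2. Hp ratios were 1.46, 1.70, 1.98, 1.51 and 2.10 in air rats of day 28 and 2.91, 1.84, 2.37, 2.39 and 1.83 in high dose rats. The groups overlapped, and the difference was 0.52, with a 95% interval of 0.14 to 0.90 (adjusted p = 0.22). On day 28 the mean log2 ratio over 7 hepatocyte markers varied between single rats. It ran from -2.92 to -0.81 in air rats, from -2.69 to -1.66 at the low dose and from -2.94 to 0.23 at the high dose. The part of hepatocyte RNA in the Hp and Orm1 values of day 28 was not tested. The Lyz2 ratio differed by 0.49, with an interval of 0.10 to 0.87 (adjusted p = 0.244). Cy5 of Lyz2 by itself differed by 0.14 (adjusted p = 0.565 in limma), and Cy3 of the reference by -0.62 without passing.

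Lcn2 of day 28 was 0.20, 0.49, 1.07, 0.07 and 1.99 in air rats, 1.42, 1.09, -0.10, 1.26 and 0.89 at the low dose and 1.48, 1.17, 2.13, 1.09 and 1.02 at the high dose. All groups overlapped, and the high dose difference of 0.61 had an interval of -0.07 to 1.29 (adjusted p = 0.379). Defb5 lay between 0.26 and 0.99 in all 15 rats of day 28, and its high dose difference was 0.00, with an interval of -0.91 to 0.90. Orm1 was well above background in 1 of the 15 rats, high dose rat 80 (0.56). Slpi lay between -1.72 and -1.27 in the high dose rats, a difference from air rats of -0.07 (interval -0.71 to 0.56). In low dose rats Slpi reached -0.25 and -0.41 in rats 53 and 55 and was -1.60 to -1.24 in the other 3, a difference of 0.42 (adjusted p = 0.762). Cy3 of the 9 genes passed at neither dose on day 28. Between the doses, 0 of the 9 genes passed on day 28 (0.0706% of all genes higher), with 1 at an unadjusted p under 0.05, Hp (0.46 higher at the high dose, unadjusted p = 0.0194 in limma).

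**Figure D3:**
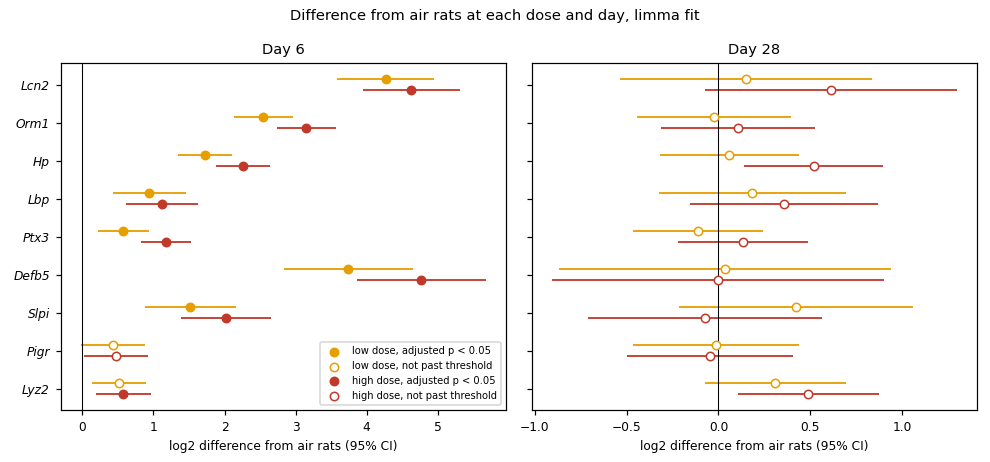
Log2 difference from air rats (x axis) with its 95% confidence interval for 9 genes at the low and high dose on day 6 and day 28 (n = 5 rats per group; x scales differ between panels). Filled points passed an adjusted p of 0.05, which held for 8 genes at the high dose and 7 at the low dose on day 6 and for 0 on day 28.

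The change from day 6 to day 28 was itself tested, as the difference of the exposed against air differences. At the high dose 6 of the 9 genes had a smaller difference on day 28 (11.3% of all genes were called in that direction), and at the low dose 4 did (1.64%). At the high dose these were Defb5, Lcn2, Orm1, Slpi, Hp and Ptx3, with changes in the log2 difference from -4.77 to -1.04. At the low dose they were Lcn2, Defb5, Orm1 and Hp. The Lyz2 ratio, whose high dose differences were 0.58 on day 6 and 0.49 on day 28, gave a difference between days of -0.09 (interval -0.63 to 0.46). In Cy5 alone its high dose differences were 0.02 and 0.14. Slpi at the low dose passed without air rat 4 (-1.49, adjusted p = 0.0134) and not with it (-1.1, adjusted p = 0.301). Between air rats of the 2 days, 0 of the 9 genes passed (1.85% and 1.09% of all genes called higher and lower), and 1 had an unadjusted p under 0.05, Lcn2, with a difference of -0.86 (adjusted p = 0.121).

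Within a group, the genes followed one another from rat to rat only in part. Over the 36 pairs of the 9 genes, the correlation of deviations from the group means ran from -0.41 to 0.67 with a median of 0.13, over 30 rats that share arrays and reference. The highest were 0.67 for Lcn2 with Lyz2 and 0.60 for Pigr with Lyz2, and the lowest was -0.41 for Pigr with Ptx3. Ptx3 had a correlation below 0 with 7 of the other 8 genes.

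Over all 30 rats, the pattern most like that of Lcn2, Orm1 and Defb5 was that of Slc26a4, which encodes pendrin, an anion exchanger of airway epithelium (Pearson r = 0.975, 0.977 and 0.950). These correlations follow the 2 exposed groups of day 6, which stand apart from the other 4. Slc26a4 was higher by 3.68 ± 0.13 (SE) at the high dose and 2.66 at the low dose on day 6. Next were Ccl17, a T cell chemokine, and the complement protein C3 for Lcn2 (0.974 and 0.971), Mmp12, the macrophage elastase, and Il1r2, the decoy receptor for IL-1, for Orm1 (0.968 and 0.959), and C3 and Mmp12 for Defb5 (0.944 and 0.935). The genes most like Hp were Entpd3, Cfi and Sqle (0.946, 0.937 and 0.934), and those most like Slpi were Bpifb1, Ctse and Gpr183 (0.929, 0.928 and 0.916). Pigr was most like C1qa, Cldn3 and C1qb (0.943, 0.930 and 0.924). Lower values held for Lyz2 (Baalc, Usp8 and Dram1, 0.886 to 0.901), Ptx3 (Slc7a3, Syt8 and Kif18b, 0.882 to 0.901) and Lbp (Mlx, Timm17b and Ldha, 0.816 to 0.826).

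Other genes of the same reactions were read from 7 lists, 92 genes tested in all, of which 6 stand on more than 1 list. The counts of all 7 lists are to be set beside the shares of all genes on day 6. At the high dose 21.1% of all genes were called higher and 15.5% lower, and at the low dose 4.98% were called higher. Of 16 other acute phase plasma proteins, 12 were higher at the high dose on day 6 and 6 at the low dose, with median differences of 1.07 and 0.37. The largest rises were those of Kng2, a kininogen (3.49 at the high dose and 1.80 at the low dose), C4bpa, a complement inhibitor (2.76 and 2.18), and Fgg, the fibrinogen gamma chain (2.22 and 1.69). Crp and Apcs, which encode the pentraxins made by the liver, did not pass the filter on dim probes. Of 6 plasma proteins known to fall in the acute phase, Tf (transferrin) rose by 1.07 and Rbp4 (retinol binding protein) fell by 0.64 at the high dose, and 0 passed at the low dose.

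Of 15 other secreted antimicrobial genes, 8 were higher and 1 lower at the high dose, and 5 were higher at the low dose. S100a9, a subunit of the zinc-binding calprotectin, rose by 3.49 and 3.31 at the 2 doses, Bpifb1, a mucosal protein of the BPI family, by 3.01 and 2.47, and Chi3l1, a chitinase-like protein, by 2.83 and 2.37. Pglyrp1, a peptidoglycan recognition protein, fell by 0.35 at the high dose. Of 11 soluble recognition proteins, 5 were higher, led by Fcnb, a ficolin (1.68), and the complement components C1qc (1.1) and C1qa (0.73), and Nptx1, a neuronal pentraxin, was lower (-0.51). At the low dose 1 of the 11 passed, C1qc (0.73). Of 15 protease inhibitors, 8 were higher and 1 lower at the high dose and 3 were higher at the low dose. Serpina1, the inhibitor of neutrophil elastase in plasma, rose by 2.14, Timp1, an inhibitor of metalloproteases, by 1.66 and A2m, a broad protease trap, by 1.1, while Wfdc1, which like Slpi has a whey acidic protein domain, fell by 1.07.

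Of 15 receptors and partners of the 10 proteins, 10 were higher and 1 lower at the high dose and 2 were higher at the low dose. Tlr2, a receptor for bacterial lipoproteins, rose by 2.01 and 0.97, and Cd14, which takes lipopolysaccharide from the Lbp protein, by 1.89 and 0.86. Ly96, the partner of TLR4 in lipopolysaccharide sensing, rose by 0.87 at the high dose, and Extl3, described as a receptor for Reg3 proteins, fell by 0.39. Of 20 inducers and their pathway genes, 7 were higher and 4 lower at the high dose and 3 were higher at the low dose. Il1b rose by 2.04 and 1.56, Zc3h12a, an RNase that degrades cytokine transcripts, by 1.45 and 0.59, and Tnf by 1.83 at the high dose. Il22ra2, the decoy receptor for IL-22, fell by 0.97, and Traf3ip2, the adaptor of the IL-17 receptor, by 0.47. Il6, Il17a, Il17f, Il17c and Il22 did not pass the filter on dim probes. On day 28, 0 genes of the 7 lists passed at the high dose in limma.

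**Figure D4:**
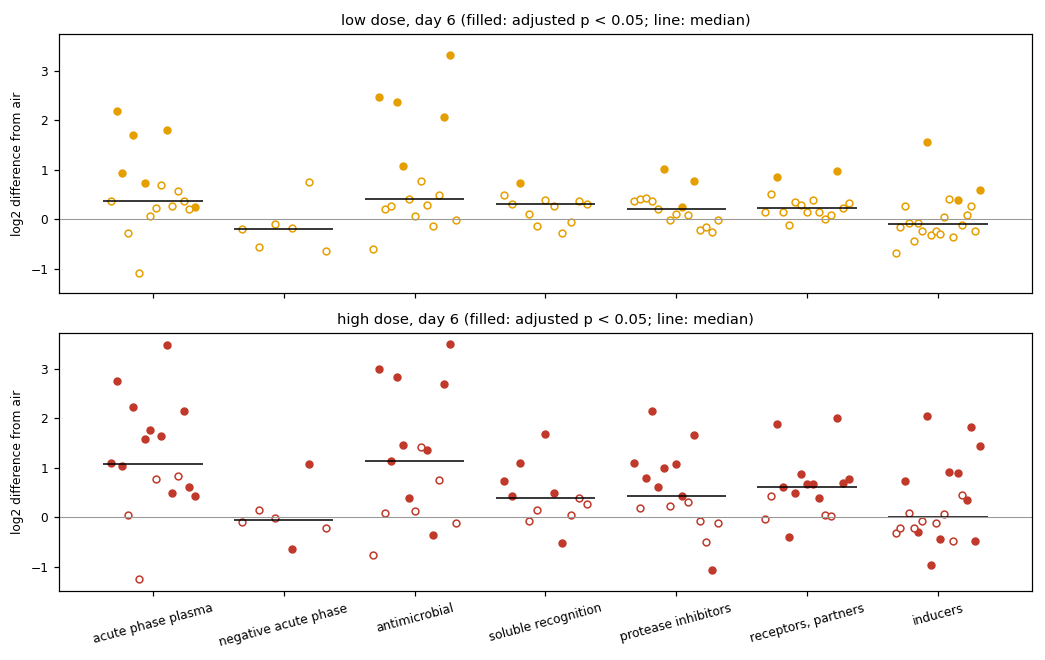
Log2 difference from air rats on day 6 (y axis) of each tested gene of 7 lists (x axis) at the low dose (top) and the high dose (bottom), filled where the adjusted p was under 0.05, with the median of each list (line). Acute phase plasma proteins have a median of 1.07 at the high dose and the inducers one of 0.00.

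Marker genes of several cell types were read beside the 10 genes on day 6, where 21.1% of all genes were called higher and 15.5% lower at the high dose. Of 10 neutrophil markers 7 were higher and 2 lower at the high dose, and their mean log2 ratio lay between 0.41 and 0.65 in air rats and between 1.30 and 1.61 in high dose rats. Of 15 macrophage markers 12 were higher, and the mean lay between -0.07 and 0.01 in air rats and between 0.64 and 1.83 in high dose rats. Of 12 club and goblet cell markers 3 were higher, among them Bpifb1, and 1 lower, shares near those of all genes, and of 8 markers of flat type 1 alveolar cells 6 were lower. The part of the neutrophil, macrophage and type 1 cell marker shifts in the changes of the 10 genes was not tested. Of 12 hepatocyte markers, 5 did not pass the filter on dim probes (Apoh, Fga, Cyp2c11, Cps1 and Tat). Of the other 7, 1 was higher (Serpina1), and Alb (albumin) differed by 0.15 ± 0.92 (SE) without passing (adjusted p = 0.919). The part of hepatocyte RNA in the rises of Hp, Orm1 and Lbp was not tested.

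The arrays lay on 4 slides, each with several groups. Within each of the 4 slides, high dose rats of day 6 were above air rats in all 9 genes, by 4.17 to 5.80 for Lcn2, 4.13 to 5.43 for Defb5, 2.41 to 3.35 for Orm1, 1.69 to 2.75 for Hp and 0.98 to 2.48 for Slpi. The within-slide differences were 0.82 to 1.75 for Ptx3, 0.64 to 1.68 for Lbp, 0.31 to 0.83 for Pigr and 0.14 to 1.03 for Lyz2. Each group of day 6 held only 1 or 2 rats on a slide. At the low dose the Slpi difference was -0.22 on slide 3, where the only air rat of day 6 was rat 4, and up to 2.47 on the others. That of Defb5 ran from 0.72, on slide 1 where the only low dose rat of day 6 was rat 48, to 5.02.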

How the data were processed

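Per the labels' protocols, 200 ng of lung RNA per rat, with an integrity number above 7, was hybridised on 2-colour Agilent arrays. The protocol calls the reference mouse RNA, and the second channel's label calls it rat RNA from 14 cell lines. The authors' deposited scanner files hold spot intensity values from Agilent Feature Extraction 11.0.1.1, per the file headers. The authors' deposited value table holds log2 ratios, whose scale and direction match log2 of Cy5 over Cy3 (r of 0.997 to 1.000 per array with loess ratios without background correction, column medians of -0.0314 to -0.00539). How they were made is not given in the sources used.

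Median spot intensities were corrected with normexp (offset 50) and loess-normalized within arrays. Control spots (4259 of 62976) and outlier flags had no weight, and spots of a probe were averaged. Median intensities replaced the mean ones named in the plan, which the columns used here do not hold. Probes well above background on at least 5 of 30 arrays were kept, and the brightest probe stood for a gene. Symbols came from RefSeq (GRCr8), while the design's own coordinates are on rn4. limma 3.58.1 (R 4.3.3) fitted 6 group means and 9 comparisons, with the method tested on simulated data. The 5 rats of a group limit the precision (median SE 0.115). Cy3 and Cy5 alone were quantile-normalized and fitted in the same way.

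The 10 genes and the lists were chosen with earlier results of these data known. From each list the text names up to 3 rises and 2 falls, the largest past the threshold at the high dose on day 6, and any gene past it on day 28. For each of the 10 genes it names the 3 with the highest Pearson r, and other genes were named after their values were seen. The alternatives tried were no background correction, the processed signals, median centring, Cy5 alone, the authors' table, other filters, the mean over probes, slide blocks, fewer groups, leaving out each rat and a fold minimum.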

Additional observations from a re-analysis of the deposited data

Results flagged for a closer look

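Single rats stood far from the other 4 of their group in 5 of the 54 sets of 5 values examined, where chance flags about 1 in 20. Low dose rat 48 of day 6 had a Defb5 ratio of 1.52. Air rat 4 of day 6 had a Hp ratio of 2.26, and air rat 3 a Lyz2 ratio of 5.96. On day 28, high dose rat 80 had an Orm1 ratio of 0.56 and high dose rat 82 a Lbp ratio of 0.22.

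The exposed against air difference of 6 genes was smaller on day 28 than on day 6, by a test of the change itself. At the high dose the change was -4.02 for Lcn2, -3.04 for Orm1, -1.74 for Hp, -4.77 for Defb5, -2.09 for Slpi and -1.04 for Ptx3. At the low dose it was -4.12 for Lcn2, -2.57 for Orm1, -1.67 for Hp and -3.70 for Defb5, which was -4.47 without low dose rat 48.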

How the results depend on the processing

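No result reversed past the threshold. Of the single-gene values under the alternatives, 1766 kept direction and call, 21 gained a call, 21 lost one, and 73 changed sign with neither value past the threshold. The count of the 9 genes higher at the high than at the low dose on day 6, which was 1, became 2 with Cy5 alone, with detection on all 5 arrays of a group, with slide as a fixed block or with the groups compared alone, 3 with slide as a random block, and 0 with the mean over probes. It ran from 0 to 2 when single rats were left out. Counts over all genes moved more. With a 1.5-fold minimum they were 2733 (of 6731) for the high and 539 (of 1238) for the low dose on day 6, 824 (of 2188) between doses, 19 (of 34) for the high dose on day 28, 17 (of 26) between doses on day 28, 206 (of 541) for air rats of the 2 days and 1958 (of 3085) for the high dose change between days. With median centring they were 573 for the low dose, 1008 between doses, 8 for the high dose on day 28, 126 for air rats, and 1623 and 159 (of 359) for the changes between days. With the groups compared alone, the high dose on day 28 gave 12, the doses of day 28 gave 9 and air rats 1161. Feature Extraction's processed signals gave 54 and 5 (of 2) for the high and low dose on day 28, and Cy5 alone 123 and 5. The cause was not tested. Without single rats the counts ran from 180 to 2494 for air rats, 11 to 326 for the high dose on day 28, 2 to 6 for the low dose on day 28, 17 to 24 between doses on day 28 and 1353 to 2591 between doses on day 6. The values 2494, 326 and 6 came without air rat 8 of day 28. The low dose change of Defb5 between days was lost with the processed signals (-1.91, adjusted p = 0.0685 in limma). Signal over background limits Orm1 in air rats, the second Ptx3 probe and Reg3g. No paired analysis was possible because the groups share no replicate numbers.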
